A study of Mus musculus with 10 samples.

Results

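The genes described here are 41 genes of lysosomal enzymes and membrane proteins, taken by gene symbol from a list of names. All 41 were found among the 55367 gene symbols of the deposited table, and all 41 were among the 15126 genes with enough counts to be tested. They fall into 10 proteases, 10 glycosidases, 4 sulfatases, 5 lipid and amide hydrolases, 3 soluble cofactors and 9 membrane proteins. RNA came from mouse bone marrow cells that the labels call BMMC. One group had regular water to drink (5 libraries, water 1 to 5) and the other had 1% α-ketoglutarate (α-KG, a metabolite of the tricarboxylic acid cycle) in its drinking water (5 libraries, α-KG 1 to 5). Not given in the sources used here: genotype, strain, sex, age and treatment length. Nothing in the labels ties a library to an animal of its own, and p-values therefore measure the spread between these libraries, which may be technical.

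Lysosomes are acid compartments in which proteins, glycans and lipids taken up or recycled by a cell are broken down. Most of their soluble hydrolases are made in the endoplasmic reticulum, tagged with mannose 6-phosphate in the Golgi and carried to the lysosome by receptors, and the V-ATPase pumps in the protons that the enzymes need. Many lysosomal genes share an E-box type promoter element, the CLEAR element, which transcription factors of the TFEB family bind. In bone marrow, macrophages and monocytes are rich in lysosomes, since they engulf dying cells and expelled red cell nuclei.

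Most of these 41 lysosomal genes were at higher levels in marrow of mice given α-KG, and 8 of the 41 rose past the test. These 8 were the proteases Ctss, Ctsc, Lgmn and Ctsa, the sulfatase Arsa, the amidase Naaa, the sterol carrier Npc2 and the membrane protein Cd68. None of the 41 fell in this edgeR fit, which was also so with DESeq2 and limma voom, and 0 of the 6 members with a fold change below 1 had an unadjusted p under 0.05. The rises ran from 1.40-fold for Npc2 to 2.31-fold for Naaa. The 8 that rose are 19.5% of the members, where 2.39% of all genes tested rose and 2.73% were called in either direction (edgeR quasi-likelihood test, Benjamini-Hochberg adjusted p under 0.05 over all 15126 genes). The median log2 fold change was 0.43 over the members and 0.02 over all genes tested. Log2 fold changes were above 0 for 35 of the 41 members (85.4%) and for 51.7% of all genes tested. By edgeR, 28 of the 41 (68.3%) had an unadjusted p under 0.05, as did 27.8% of all genes tested. The make-up of the libraries differed with the group: the structural RNAs Rn7s1 and Rn7s2 took 16.4% ± 5.92 of counts in water and 27.2% ± 2.50 in α-KG, and protein-coding genes 55.8% ± 10.9 and 46.0% ± 4.70 (SD, n = 5). With the Rn7s share as a covariate 0 members and 0 of all genes were called (edgeR, 8 members and 1810 genes at an unadjusted p under 0.05), while the members' median was 0.43, with 35 of 41 above 0 and all 8 of the same sign. The members were chosen with earlier results of these data known, so these counts describe them and are no separate support.

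**Figure D1:**
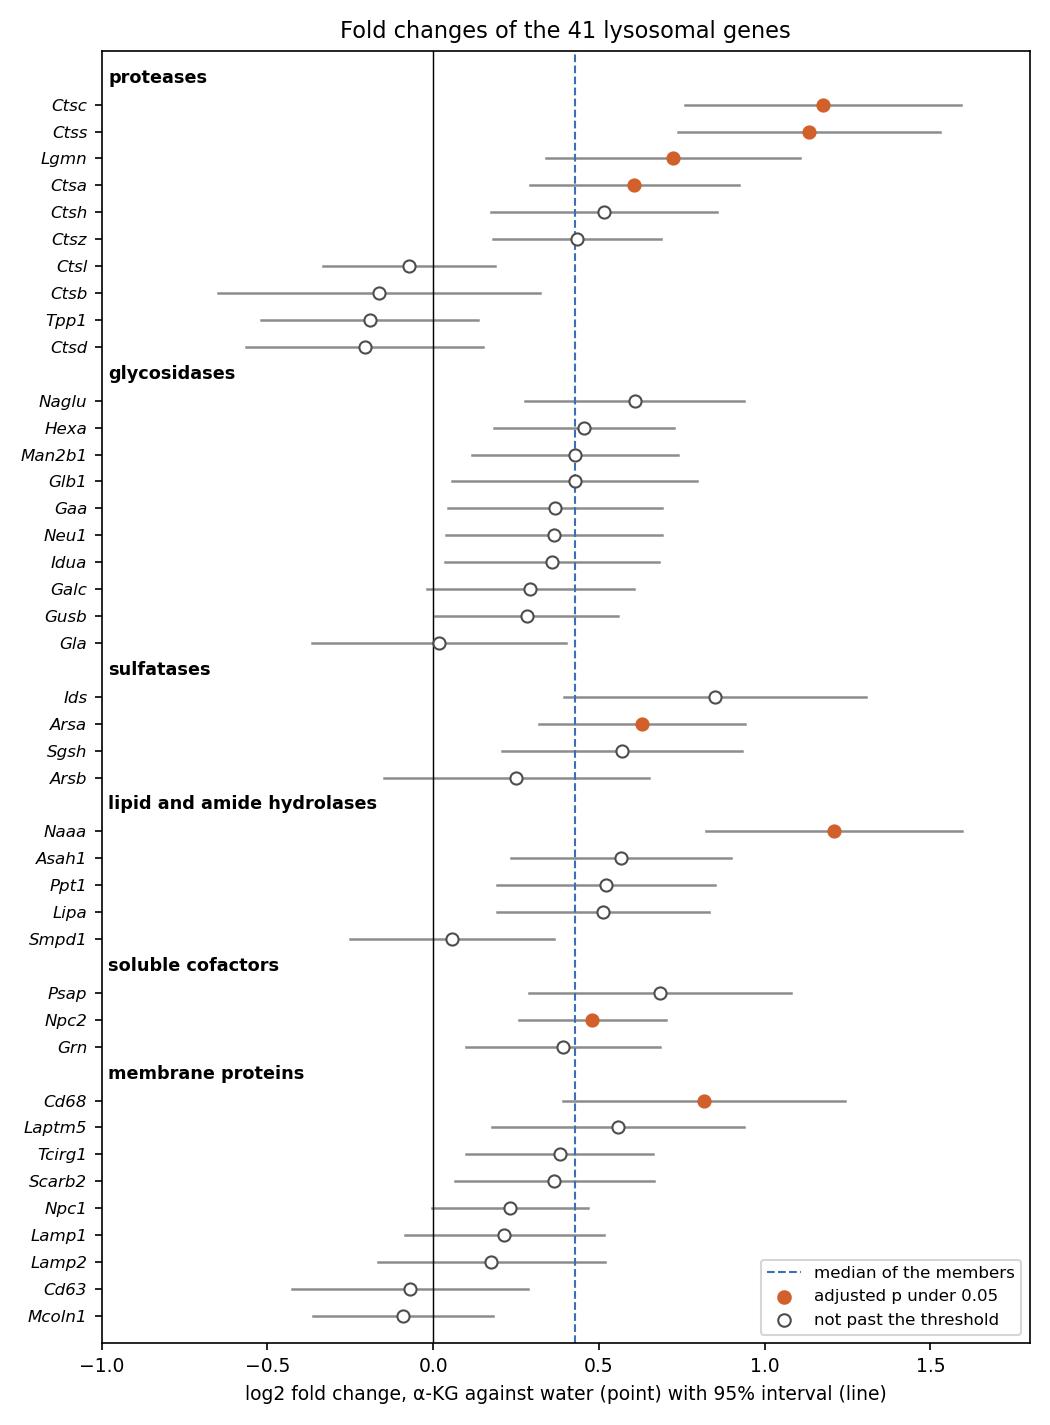
Log2 fold change of each of the 41 lysosomal genes in α-KG against water (points) with its 95% interval (lines), by role class; filled points are the 8 genes past an adjusted p of 0.05 and the dashed line is the members' median of 0.43. The proteases spread most, from Ctsd at -0.21 to Ctsc at 1.18, while all 10 glycosidases lie above 0 and none is filled.

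Most monocyte and macrophage markers moved with these genes. Of 12 monocyte markers, 8 rose and 0 fell, and their summed level was 454 to 599 CPM (counts per 1e+06 counts after scaling) in the water libraries and 610 to 1264 in the α-KG libraries. Of 14 macrophage markers, 13 were tested and 5 rose, and their summed level was 95.5 to 138 CPM in water and 150 to 228 in α-KG. No marker of either list was at 0 in all libraries, but Timd4, the macrophage marker not tested, was at 0.04 CPM in water and 0.02 in α-KG. Log2 fold changes were above 0 for 11 of the 12 monocyte and 12 of the 13 tested macrophage markers. The exceptions were Cd14 at -0.06 and Slc40a1 at -0.09 (edgeR adjusted p = 0.868 and 0.653). In both lists water 3 was the highest water library and α-KG 2 the lowest α-KG library, which was not particular to them. When the mean of both marker lists was a covariate, 0 members and 0 of all genes were called (edgeR, 1 member and 187 genes at an unadjusted p under 0.05) and the members' median log2 fold change was 0.01. Summed levels of both lists did not overlap between the groups, so such a covariate runs with the group. Marker level and treatment therefore cannot be told apart in that fit. In bulk RNA, more cells of a type and more RNA per cell cannot be told apart.

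**Figure D2:**
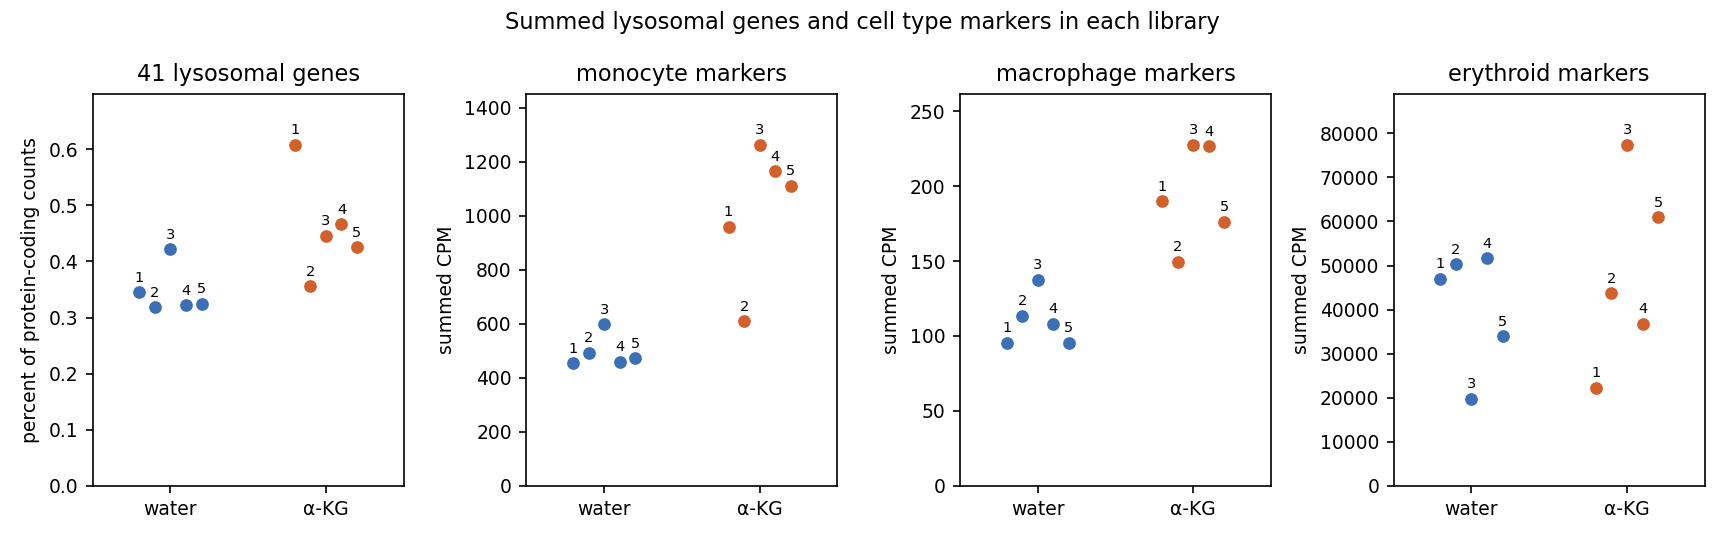
Share of protein-coding counts from the 41 lysosomal genes, in percent, and summed CPM of the monocyte, macrophage and erythroid markers, with 1 point per library and its replicate number. The monocyte sums of α-KG 2 (610 CPM) and water 3 (599 CPM) lie next to each other, and the erythroid sums of water 3 and α-KG 1 are the lowest of their groups.

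The members varied between libraries of a group in a common way. α-KG 2 was the lowest α-KG library for 32 of the 41 members, among them all 8 that rose, and water 3 was the highest water library for 26 of the 41. The median member stood at 0.09 above the water mean on the log2 scale in α-KG 2, and at 0.40 to 0.59 in α-KG 1, 3, 4 and 5. In water 3 it stood at 0.17, and in the other water libraries at -0.05 to 0.03. The groups did not overlap for 10 members, which is 24.4% of them and compares with 5.65% of all genes tested. For 19 more, α-KG 2 was the 1 α-KG library that did not lie above every water library. Without α-KG 2, 24 members rose and 0 fell, where 10.5% of all genes tested rose. Without water 1, water 2, water 4 or α-KG 4, edgeR called 0 members and 0 of all genes. At an unadjusted p under 0.05 these fits held 24 to 28 members and 3232 to 3672 genes, and DESeq2 called 6 to 9 members and 497 to 658 genes. Members that rose were 2 without α-KG 3, where 0.239% of all genes tested were called, and 10 without water 3, where 4.15% were. They were 3 when water 5, α-KG 1 or α-KG 5 was left out, where 0.464%, 0.907% and 0.961% of all genes tested were called.

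**Figure D3:**
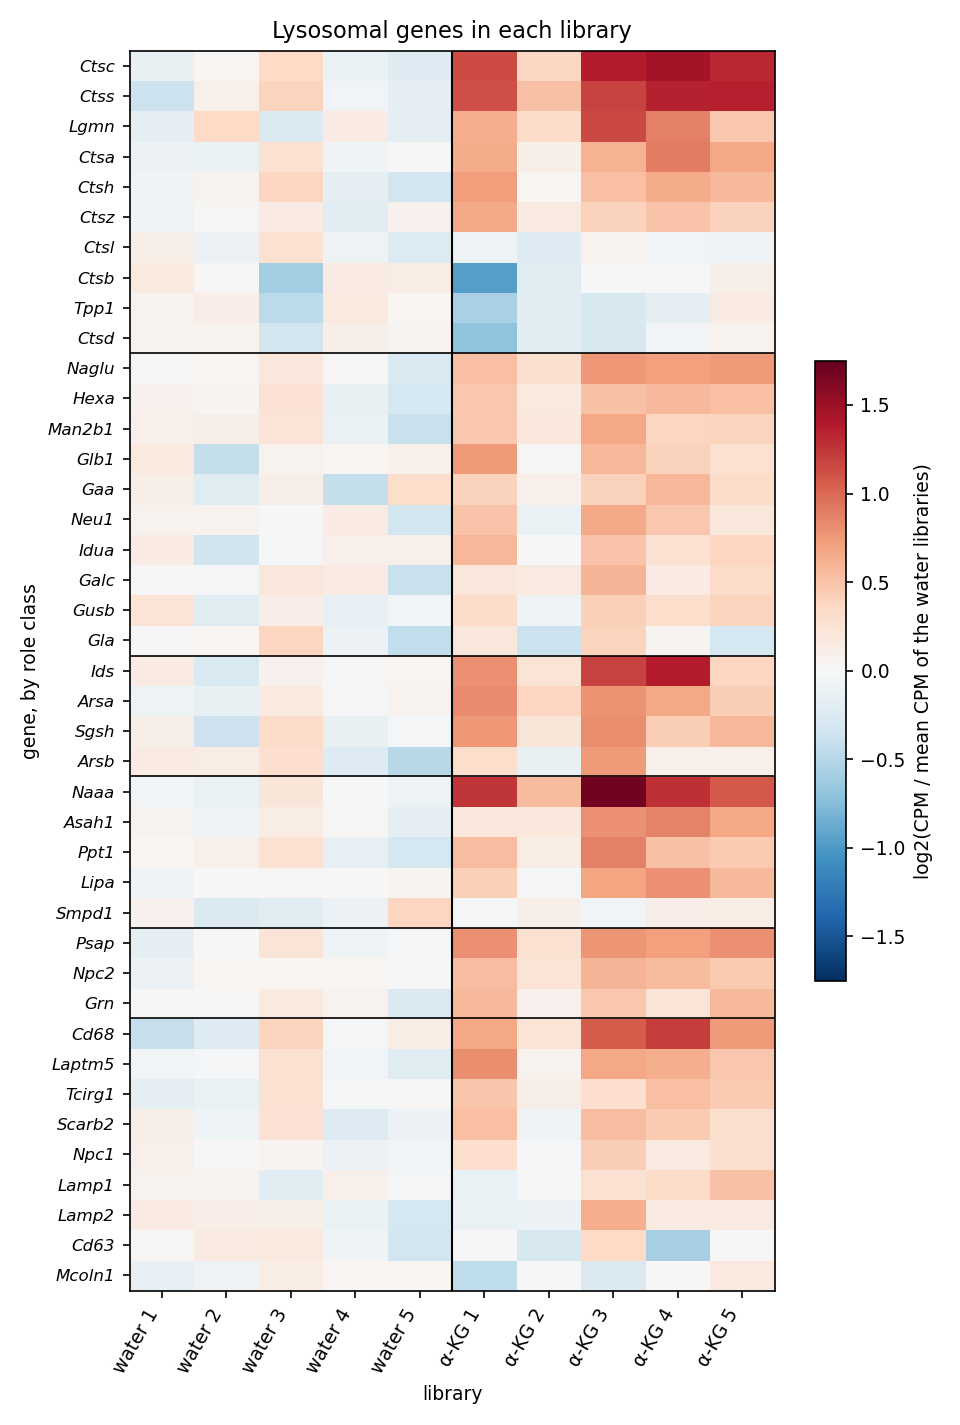
Level of each lysosomal gene in each library as log2 of its CPM over the mean of the water libraries, with genes ordered by role class and by fold change within it. The α-KG 2 column is paler than the other α-KG columns, and Ctsb, Ctsd and Tpp1 are lowest in water 3 and α-KG 1.

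The members' summed share of protein-coding counts was 0.347% ± 0.0434 in the water group and 0.460% ± 0.0927 in the α-KG group (SD, n = 5). Compared per kilobase of annotated exon, their mean levels spanned 0.539 CPM per kilobase for Galc to 159 for Psap. Exon length merges all annotated transcripts of a gene, so ranks per kilobase depend in part on the annotation. Galc, with 14879 exon bases, was at 7.19 CPM in water, above Naglu at 3.34. Psap, which encodes the precursor of the saposins, alone held 27.0% of the summed level per kilobase. Behind it came Ctsd at 59.1, Laptm5 at 55.4, Ctss at 40.3, Ctsb at 36.2 and Lamp1 at 31.3 CPM per kilobase. Ctss was sixth in water, at 25.2 ± 5.10 CPM per kilobase, and next after Laptm5 in α-KG, at 55.3 ± 11.6 (SD, n = 5). There it was close to Ctsd, at 54.9 ± 10.4, from which it did not differ beyond the spread. Ctsb at 38.2 ± 7.46 and Laptm5 at 44.8 ± 5.67 CPM per kilobase were likewise within their spread of each other in water. Of the 41, 20 were under 5 CPM per kilobase, among them all 4 sulfatases and all 5 lipid and amide hydrolases. The smallest count of any member in any library was 39, for Naglu.

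**Figure D4:**
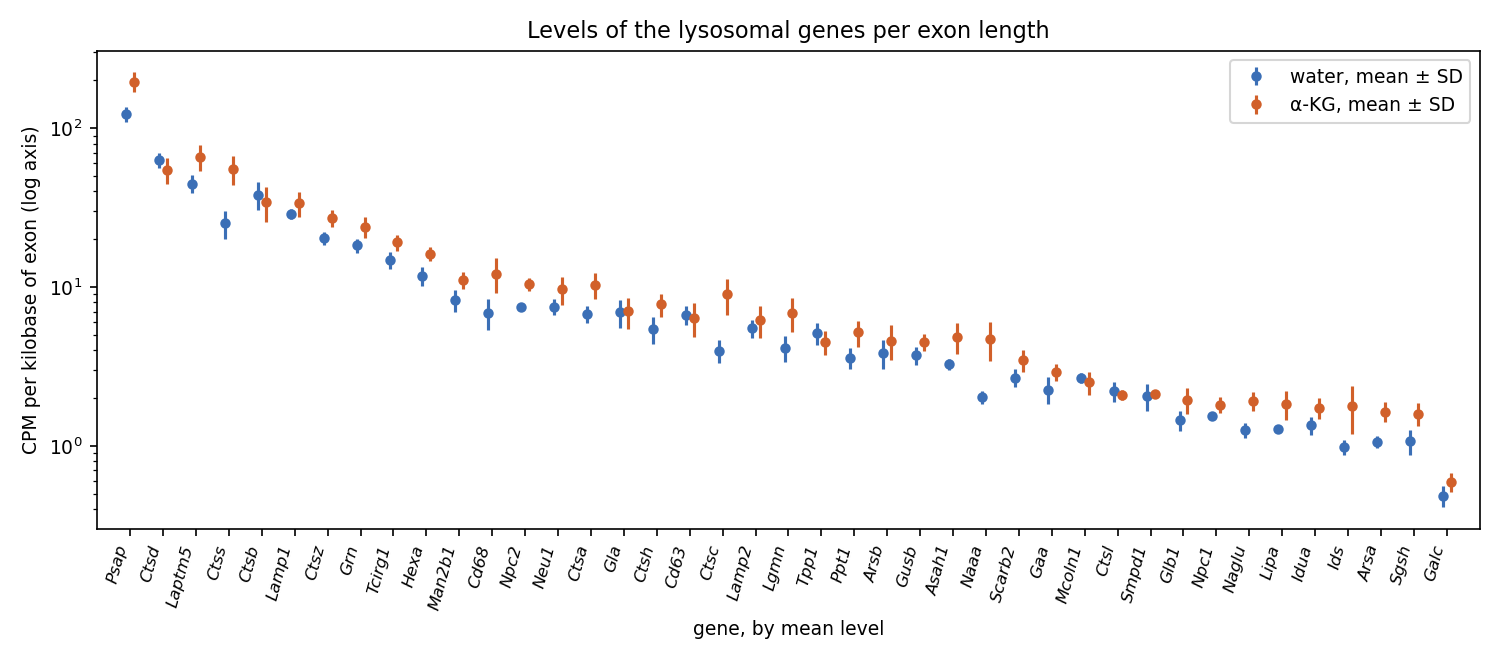
Mean level ± SD (n = 5) of each lysosomal gene in CPM per kilobase of exon on a log axis, in water and in α-KG, ordered by the mean over all libraries. Psap stands above all others, at 122 in water and 196 in α-KG, and Galc is the lowest.

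Among the proteases, the cysteine cathepsin genes split into a set that rose and a set that did not pass. Ctss encodes cathepsin S, a protease of antigen-presenting cells that trims the invariant chain of MHC class II (chromosome 3, 95526786 to 95556403, build GRCm38). It was at 26.3, 36.5, 44.6, 33.1 and 30.4 CPM in water 1 to 5 and at 74.7, 48.8, 77.8, 87.1 and 87.5 in α-KG 1 to 5. All α-KG libraries lay above all water libraries, with α-KG 2 close to water 3. Ctss rose by 1.13 ± 0.18 SE on the log2 scale (edgeR adjusted p = 0.0154).

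Ctsc encodes cathepsin C, the dipeptidyl peptidase that activates the serine proteases of granulocytes and cytotoxic cells (chromosome 7, 88278085 to 88310888). Its water values were 21.1, 23.7, 29.5, 21.3 and 19.8 CPM, and its α-KG values were 51.1, 29.7, 59.8, 63.2 and 57.3. The groups touched without overlap, with α-KG 2 at 29.7 and water 3 at 29.5 CPM. The log2 fold change was 1.18 ± 0.19 SE (edgeR adjusted p = 0.0168). Of the 5 granulocyte precursor markers, which include the protease genes Elane, Prtn3 and Ctsg, 0 were called (edgeR, 0 at an unadjusted p under 0.05, 0 by DESeq2 and 0 by limma voom).

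Lgmn and Ctsa were the other proteases that rose. Lgmn encodes legumain, which cuts after asparagine and matures other cathepsins (chromosome 12, 102394084 to 102439813). It was at 8.61, 12.3, 8.09, 10.6 and 8.64 CPM in water and at 15.03, 12.1, 21.6, 17.7 and 13.4 in α-KG. Only α-KG 2 overlapped the water libraries, through water 2 (0.72 ± 0.18 SE, edgeR adjusted p = 0.0492). Ctsa encodes the carboxypeptidase that also protects β-galactosidase and neuraminidase in a complex (chromosome 2, 164832873 to 164841032). Its values were 29.7, 29.3, 38.6, 30.2 and 31.8 CPM in water and 50.2, 34.2, 48.9, 59.4 and 50.9 in α-KG. Here α-KG 2 lay below water 3 and above the other water libraries (0.61 ± 0.15 SE, edgeR adjusted p = 0.0483). Ctsa shares up to 495 exon bases with Neurl2 or Pltp on the opposite strand. Whether the counting used strand is not stated in the labels.

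Ctsz, an exopeptidase, and Ctsh, an aminopeptidase, had log2 fold changes of 0.43 ± 0.12 and 0.52 ± 0.16 and did not pass (SE, edgeR adjusted p = 0.0626 and 0.0805). The other 4 proteases had values below 0. Ctsd, the aspartic protease cathepsin D (chromosome 7, 142375911 to 142388038), had the lowest fold change of all members. It was at 155, 155, 120, 160 and 154 CPM in water and at 91.4, 131, 123, 144 and 156 in α-KG. The groups overlapped, with a log2 fold change of -0.21 and a 95% interval of -0.56 to 0.15 (edgeR adjusted p = 0.418). Ctsb, Tpp1 and Ctsl stood at -0.16, -0.19 and -0.07 (edgeR adjusted p = 0.643, 0.411 and 0.700). Ctsb encodes cathepsin B, Tpp1 a tripeptidyl peptidase and Ctsl the endopeptidase cathepsin L. Ctsd shares 808 exon bases with Gm49369 on the same strand, so strand could not separate their reads. Ctsb shares 774 with Fdft1 on the opposite strand, and Ctsl up to 1742 with Gm47123 or Gm49230.

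Ctsb, Ctsd, Tpp1 and Lamp1 were lowest in water 3 among the water libraries and in α-KG 1 among the α-KG libraries. Those were also the libraries with the lowest summed erythroid markers of their groups, at 19730 CPM in water 3 and 22227 in α-KG 1. The other libraries had 33979 to 51633 CPM in water and 36757 to 77454 in α-KG. Ctsb was at 152 CPM in water 3, where the other water libraries had 235 to 259, and at 119 in α-KG 1, with 202 to 249 in α-KG 2 to 5. Of 10 erythroid markers, 0 were called (edgeR, 1 at an unadjusted p under 0.05, DESeq2 0, limma voom 0). The sums are mostly hemoglobin RNA of Hbb-bs and Hba-a1, while 7 of the 10 markers lay below 0 on the log2 scale and the list median was -0.66. With the erythroid marker mean as a covariate, added after seeing the data, Ctsb stood at 0.11 ± 0.14, Ctsd at -0.02 ± 0.11 and Lamp1 at 0.33 ± 0.12 (SE, edgeR adjusted p = 0.698, 0.937 and 0.154). Tpp1 stood at -0.0020 ± 0.117 in that fit (SE, edgeR adjusted p = 0.996). The covariate was a mean of log2 levels over the markers, not their sum. Its average was 9.60 for water libraries (SD 0.46) and 8.92 for those given α-KG (SD 1.01). It thus moved in part with the group, and the fit cannot fully tell it from treatment. Whether erythroid content accounts for the values of these genes was not tested.

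**Figure D5:**
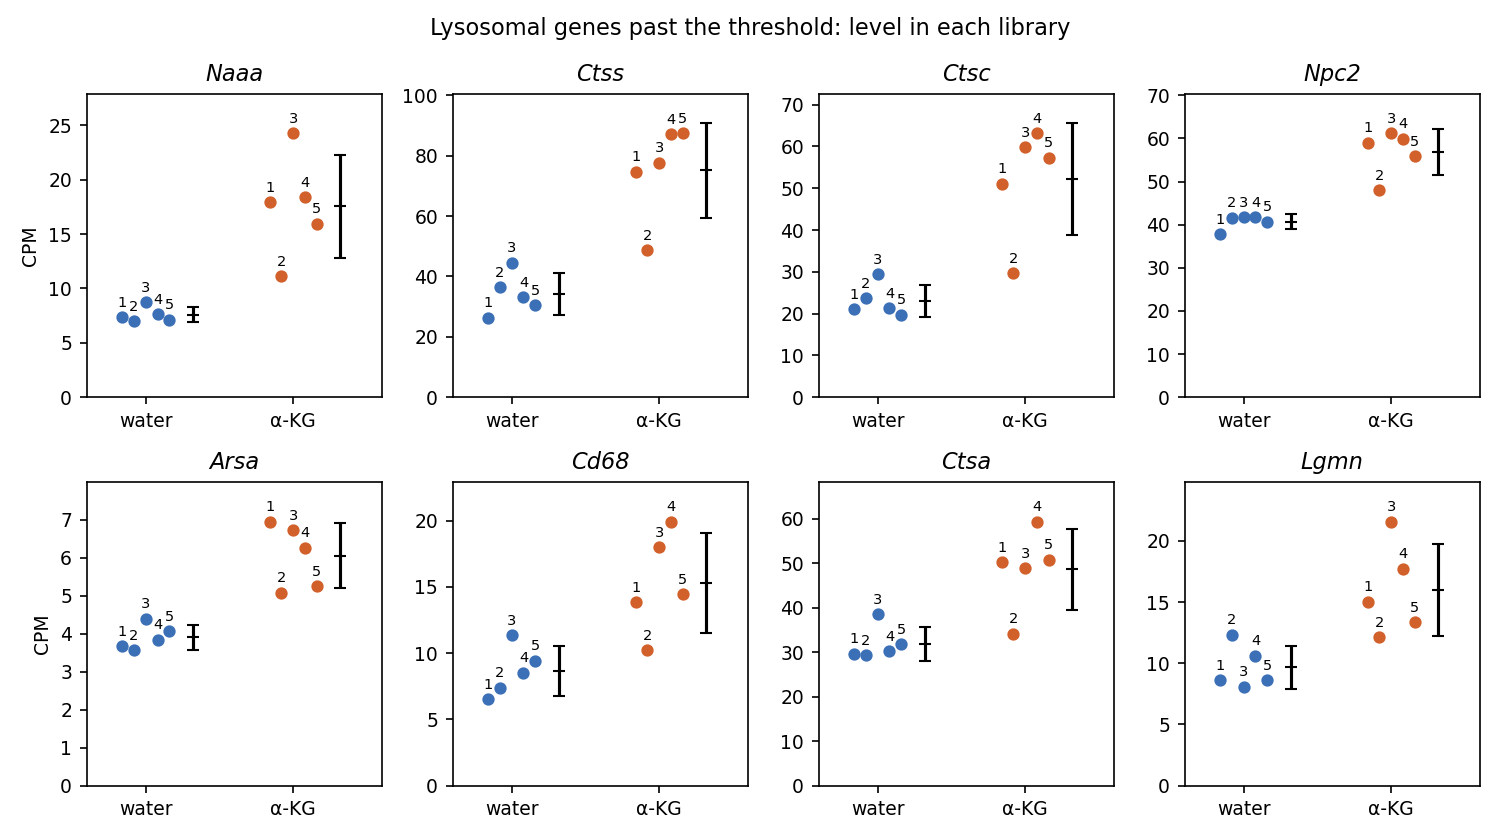
CPM of the 8 lysosomal genes past the threshold in each library, with its replicate number, and the mean ± SD (bars, n = 5). In each panel α-KG 2 is the lowest α-KG library, and for Naaa, Ctss, Ctsc, Npc2 and Arsa it still lies above every water library.

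Log2 fold changes of all 10 glycosidase genes were above 0 and their median was 0.37, but 0 passed over all genes tested. By edgeR 8 of them had an unadjusted p under 0.05, where 27.8% of all genes tested did. DESeq2 called 2 and limma voom called 0. Naglu, which encodes the heparan sulfate enzyme N-acetylglucosaminidase (chromosome 11, 101070012 to 101077672), had the smallest p. It was at 3.27, 3.42, 3.83, 3.37 and 2.78 CPM in water and at 4.81, 4.04, 5.66, 5.50 and 5.604 in α-KG. The groups did not overlap (0.61 ± 0.15 SE, edgeR adjusted p = 0.0546). Hexa, the α subunit of β-hexosaminidase, and Man2b1, the acid α-mannosidase, stood at 0.46 ± 0.13 and 0.43 ± 0.14 (SE, edgeR adjusted p = 0.0648 and 0.0963). Glb1 and Neu1, the β-galactosidase and neuraminidase of the complex with Ctsa, stood at 0.43 and 0.36, and Gaa, which digests glycogen, stood at 0.37 (edgeR adjusted p = 0.137 to 0.144). Idua, Galc and Gusb were at 0.36, 0.29 and 0.28 (edgeR adjusted p = 0.147 to 0.202). Gla, the α-galactosidase, was the lowest at 0.02, with a 95% interval of -0.36 to 0.40.

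Of the 4 sulfatase genes, Arsa rose. Arsa encodes arylsulfatase A, which removes sulfate from sulfatide (chromosome 15, 89472476 to 89477425). It was at 3.67, 3.57, 4.399, 3.84 and 4.07 CPM in water and at 6.95, 5.08, 6.72, 6.26 and 5.24 in α-KG. All α-KG libraries were above all water libraries (0.63 ± 0.14 SE, edgeR adjusted p = 0.0414). Arsa shares 690 exon bases with the antisense gene C230037L18Rik, whose reads cannot be told from it without strand. Ids, the iduronate sulfatase, was at 4.998 ± 0.516 CPM in water and 9.08 ± 3.04 in α-KG, and its groups were apart as well (SD, n = 5; 0.85 ± 0.21 SE, edgeR adjusted p = 0.0528). Sgsh and Arsb, which act on heparan and dermatan sulfate, stood at 0.57 and 0.25 (edgeR adjusted p = 0.0735 and 0.380).

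Naaa had the largest fold change of all members. It encodes an amidase that breaks down N-acylethanolamines such as palmitoylethanolamide (chromosome 5, 92257659 to 92278170). It was at 7.35, 6.99, 8.73, 7.63 and 7.14 CPM in water and at 17.9, 11.1, 24.3, 18.4 and 15.95 in α-KG. The groups were apart, and the log2 fold change was 1.21 ± 0.18 SE (edgeR adjusted p = 0.0154). The related acid ceramidase gene Asah1 was at 11.1 ± 0.836 CPM in water and 16.5 ± 3.66 in α-KG, without overlap, but did not pass (SD, n = 5; 0.57 ± 0.15 SE, edgeR adjusted p = 0.0623). Ppt1, which removes palmitate from proteins, and Lipa, the acid lipase of cholesteryl esters, stood at 0.52 and 0.51 (edgeR adjusted p = 0.0721 and 0.0703). The acid sphingomyelinase gene Smpd1 stood at 0.06, with a 95% interval of -0.25 to 0.36.

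Npc2 rose among the soluble cofactors, and its spread in water was the smallest of the 8 genes relative to the mean. It encodes the protein that hands cholesterol to Npc1 in the lysosome (chromosome 12, 84754562 to 84773152). Its values were 37.8, 41.6, 41.8, 41.7 and 40.7 CPM in water and 59.1, 48.1, 61.2, 59.96 and 55.9 in α-KG. The groups were apart (0.48 ± 0.10 SE, edgeR adjusted p = 0.0356). Its membrane partner Npc1, which exports cholesterol, stood at 0.23 ± 0.11 (SE, edgeR adjusted p = 0.184). Psap (chromosome 10, 60277627 to 60302597) was at 298, 338, 393, 319 and 328 CPM in water and at 583, 403, 570, 553 and 585 in α-KG. No α-KG library was as low as a water library, yet the log2 fold change of 0.68 ± 0.18 did not pass (SE, edgeR adjusted p = 0.0605). Grn, the gene of progranulin, stood at 0.39 ± 0.13 (SE, edgeR adjusted p = 0.102).

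Of the 9 membrane proteins, Cd68 rose and the main structural proteins did not pass. Cd68 encodes a heavily glycosylated protein widely used as a macrophage marker (chromosome 11, 69664213 to 69666153). It was at 6.51, 7.39, 11.4, 8.52 and 9.42 CPM in water and at 13.8, 10.2, 18.0, 19.9 and 14.4 in α-KG. α-KG 2 lay below water 3, and the other α-KG libraries lay above all water libraries (0.82 ± 0.20 SE, edgeR adjusted p = 0.0478). Lamp1 and Lamp2, the most abundant proteins of the lysosomal membrane, stood at 0.22 and 0.18 with 95% intervals of -0.09 to 0.52 and -0.17 to 0.52. Laptm5, a membrane protein of blood cells, stood at 0.56 ± 0.18 and Tcirg1, the V-ATPase subunit that osteoclasts need, at 0.38 ± 0.13 (SE, edgeR adjusted p = 0.0839 and 0.1002). Scarb2, the receptor that carries glucocerebrosidase, was at 0.36 (edgeR adjusted p = 0.122). The tetraspanin gene Cd63 and the calcium channel gene Mcoln1 were at -0.07 and -0.09 (edgeR adjusted p = 0.798 and 0.644).

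The promoters of the members were searched for the CLEAR type E-box, because the TFEB family acts through it. RefSeq windows on GRCm38.p6 were found for 37 members, and the 250 bases before each RefSeq start were read on both strands. These starts can differ from the gene positions given here, which come from GENCODE, so some windows reach into a gene. Of the stretches below, that of Ctsd lies inside its gene span and that of Mcoln1 crosses the gene start at 3500457. The 7 letters TCACGTG were found in 9 of the 37 (24.3%), in 3.13% of the 27025 windows of all genes and in 4.92% of the 10181 windows of genes tested. The full CLEAR consensus, which contains those letters, was found in 0 of the 37 members and 0.255% of all windows. The stretches below hold 100 bases each, with matches to TCACGTG in capitals, or to GAGGAAGT, the core bound by the myeloid factor PU.1, for Ctsc. Lamp1 and Gla, with 4 matches each, and Mcoln1 and Ctsd, with 3 each, did not pass the test, while Arsa, with 1, rose. One of the matches of Ctsd lies outside its printed stretch, and Gla is not printed. A match on both strands of TCACGTGA was counted as a pair. The regions are chr8:13159061-13159160 on the plus strand for Lamp1, chr8:3500414-3500513 on the plus strand for Mcoln1, chr7:142387874-142387973 on the minus strand for Ctsd, chr15:89477425-89477524 on the minus strand for Arsa and chr7:88277887-88277986 on the plus strand for Ctsc.
Lamp1: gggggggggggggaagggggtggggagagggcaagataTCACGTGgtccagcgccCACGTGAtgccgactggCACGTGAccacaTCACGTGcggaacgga
Mcoln1: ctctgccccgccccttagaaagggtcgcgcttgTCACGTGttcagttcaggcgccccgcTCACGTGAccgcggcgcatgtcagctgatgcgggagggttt
Ctsd: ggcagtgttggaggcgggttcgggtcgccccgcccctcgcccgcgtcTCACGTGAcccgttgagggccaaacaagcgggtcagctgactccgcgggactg
Arsa: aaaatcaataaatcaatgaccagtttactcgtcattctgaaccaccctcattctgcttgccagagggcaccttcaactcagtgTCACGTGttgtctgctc
Ctsc: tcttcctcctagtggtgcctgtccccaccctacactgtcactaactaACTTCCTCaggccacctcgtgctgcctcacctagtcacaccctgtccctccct

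Of the 9 members with TCACGTG, Arsa was the 1 that rose, and their median log2 fold change was 0.37. Of the 28 without it, 7 rose, and their median was 0.43. GAGGAAGT was found in 2 of the 37 member windows, Ctsc and Gla, and in 2.42% of all windows. Such matches describe these letters in these windows and show no binding.

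The other genes of the pathway were taken from 7 lists. Of 38 other hydrolases and cofactors, 1 rose and 0 fell, which is 2.63% and near the 2.39% of all genes tested, with a median log2 fold change of 0.25. DESeq2 called 6 of these 38 and limma voom 1, where they called 5.14% and 1.77% of all genes they tested. The gene that rose by edgeR was Gm2a, which encodes the activator that presents the ganglioside GM2 to the hexosaminidase of Hexa. Gm2a was at 28.3 ± 4.19 CPM in water and 55.005 ± 13.7 in α-KG (mean ± SD, n = 5; 0.96 ± 0.18 SE, edgeR adjusted p = 0.0260). The thiol reductase gene Ifi30 and Smpdl3a stood at 0.46 and 0.48 (edgeR adjusted p = 0.0577 and 0.0584). DESeq2 called 3 of 29 other membrane proteins and limma voom 0. By edgeR 1 of the 29 rose and 0 fell, which is 3.45% and near the 2.39% of all genes tested, with a median of 0.18. It was the nucleoside transporter gene Slc29a3, at 11.2 ± 1.84 CPM in water and 17.0 ± 2.35 in α-KG (mean ± SD, n = 5; 0.60 ± 0.14 SE, edgeR adjusted p = 0.0456). The amino acid transporter gene Slc36a1 and the surface receptor gene Cd300a, which that list also holds, both stood at 0.63 (edgeR adjusted p = 0.0584 and 0.0556).

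Of 16 genes of mannose 6-phosphate tagging and sorting, 1 rose and 0 fell, with a median of 0.10. That is 6.25%, where 2.39% of all genes tested rose, and DESeq2 and limma voom called 1 each. Nagpa, the enzyme that uncovers the mannose 6-phosphate tag, was at 7.54 ± 0.864 CPM in water and 13.04 ± 2.54 in α-KG (mean ± SD, n = 5; 0.79 ± 0.16 SE, edgeR adjusted p = 0.0278). The sorting adaptor genes Gga1 and Ap1b1 stood at 0.27 and -0.47 (edgeR adjusted p = 0.121 and 0.162). Of 9 cystatin symbols, 8 were in the table and 4 were tested. By edgeR 1 of those 4 rose, which is 25% but of few genes. Cst3, the gene of the secreted cathepsin inhibitor cystatin C, rose from 28.2 ± 2.37 to 46.3 ± 8.51 CPM (SD, n = 5; 0.71 ± 0.14 SE, edgeR adjusted p = 0.0278). The cytosolic inhibitor Cstb and Cst7 stood at 0.59 and 0.24 (edgeR adjusted p = 0.0861 and 0.481).

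None of 16 tested V-ATPase subunit genes passed, and their median log2 fold change was 0.01 (edgeR, 4 at an unadjusted p under 0.05, 0 called by DESeq2 and 0 by limma voom). Atp6v1h, Atp6v0a2 and Atp6v1f had the smallest p, at 0.34, 0.37 and 0.28 (edgeR adjusted p = 0.103, 0.110 and 0.151). Of 21 genes of the TFEB family and of mTORC1 at the lysosome, 0 passed, with a median of 0.06 (edgeR, 5 at an unadjusted p under 0.05, 1 called by DESeq2 and 0 by limma voom). Tfeb itself was at 13.3 ± 1.93 CPM in water and 19.9 ± 5.998 in α-KG (mean ± SD, n = 5; 0.58 ± 0.19 SE, edgeR adjusted p = 0.0902). Its relatives Mitf, Tfec and Tfe3 stood at 0.58, 0.60 and -0.09, and Lamtor4, a part of the complex that anchors mTORC1, at 0.50 (edgeR adjusted p = 0.0541 to 0.718). Of 27 autophagy genes, 0 passed, and 18 of them lay below 0 on the log2 scale, their median being -0.20 (edgeR, 8 at an unadjusted p under 0.05, 5 called by DESeq2 and 0 by limma voom). An unadjusted edgeR p under 0.05 was found for 25% of the V-ATPase, 23.8% of the TFEB and 29.6% of the autophagy genes. These shares are near the 27.8% of all genes tested. Uvrag, Tecpr1 and Atg4b were at 0.50, 0.76 and -0.61 (edgeR adjusted p = 0.0584 to 0.0703).

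The markers of other marrow cells were checked beside the members. Of 9 T and NK cell markers 2 rose, and all 9 lay above 0 on the log2 scale, with a median of 0.60. Of 6 osteoclast markers 2 were tested and 1, Nfatc1, rose, while the 4 not tested averaged 0.19 CPM or less in each group. For both summed lists water 3 was the highest water library and α-KG 2 the lowest α-KG library, as for the monocyte and macrophage sums. Log2 fold changes were above 0 for 5 of 5 basophil and 7 of 8 B cell markers, with medians of 0.75 and 0.45. The neutrophil, granulocyte precursor, erythroid, B cell, plasma cell, platelet, dendritic cell, stromal, basophil and skeletal muscle lists had 0 calls each by edgeR, while per list 0 to 3 markers had an unadjusted p under 0.05 and DESeq2 called 0 to 2. Summed neutrophil markers were at 3301 to 6040 CPM in water and 3371 to 6672 in α-KG.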

How the data were processed

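Total RNA of bone marrow cells was depleted of ribosomal RNA and sequenced, per the labels' protocols. The submitters' processing notes name bcl2fastq, DRAGEN and the build GRCm38, with no versions or roles. Not given in the sources used here: quantifier, annotation and strand setting. Values are the estimated counts per gene that the authors deposited, without scaling; 10.3% are not whole, and all were rounded to whole counts. Library totals were 14291364 to 22490118. Pairs of libraries within a group differed beyond counting error (chi-square per degree of freedom 34.1 to 440.0).

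Genes were kept by filterByExpr (minimum count 10, minimum total 15) and tested with edgeR 4.0.16 under R 4.3.3 (TMM scaling, robust quasi-likelihood F test, both directions); p-values were adjusted by Benjamini-Hochberg and called under 0.05. SE is the absolute log2 fold change over the square root of F. CPM are per 1e+06 counts after TMM. Alternatives used DESeq2 1.42.0, limma 3.58.1, other scalings, covariates and left-out libraries. On simulated counts DESeq2 called more unchanged genes than its threshold allows, and more than edgeR or voom did. Those counts were drawn gene by gene with the spread that edgeR estimated, and lack the shifts that many genes share in a library here. Whether the same holds for the DESeq2 counts given was not tested. Exon lengths and positions came from GENCODE M21, where 53365 of 55367 symbols were found; 16 members share exon bases with another gene.

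Members and lists were chosen with earlier results of these data known. Values by library are given for members past the threshold, the member with the smallest p in each class, the lowest fold change and the highest level per kilobase; of each pathway list up to 3 genes with the smallest p are named, and the TFEB family always.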

Additional observations from a re-analysis of the deposited data

Results flagged for a closer look

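The highest or lowest library of a group stood far from the other 4 in 10 of 84 checks (Dixon's ratio above 0.71). Chance flags about 5% of independent groups, but these checks reuse the same libraries, so that rate gives no test here. Water 3 was low for Ctsb, at 152.3 CPM against 235.3 to 259.2 in the other water libraries, for Ctsd, at 119.7 against 154.2 to 160.2, and for Tpp1, at 19.37 against 27.19 to 30.0. Water 3 was high for Ctsa, at 38.59 CPM against 29.34 to 31.83, and for the members' share of protein-coding counts, at 0.4219% against 0.3183% to 0.3456%. α-KG 2 was low for Psap, at 402.7 CPM against 552.8 to 585.4, for Hexa, at 26.47 against 32.65 to 34.72, and for Gusb, at 16.22 against 20.87 to 22.46. Water 2 was low for Glb1, at 3.271 CPM against 4.493 to 4.908. Water 1 was low for Npc2, at 37.81 CPM against 40.69 to 41.79.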

How the results depend on the processing

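Over 21 alternatives, 2 of them chosen after seeing the data, the members' median log2 fold change stayed above 0, and all 8 called members kept their sign in 20. The exception was the fit with the monocyte and macrophage marker mean as a covariate, where the median was 0.00803 and 0 members and 0 genes were called. Ctsa stood at -0.091 and Cd68 at -0.19 in that fit. Marker levels moved with the group, so the fit cannot tell them from treatment, and the cause was not tested. With the share of Rn7s1 and Rn7s2 as a covariate, 0 members and 0 genes were called, and the median was 0.43. That share also moved with the group. Called members and genes were 18 and 1654 with DESeq2, 5 and 267 with limma voom, 23 and 2388 with voom quality weights, 5 and 328 with RLE scaling, and 5 and 367 with structural RNAs left out. In the order given, these fits called 5.14%, 1.77%, 15.8%, 2.17% and 2.44% of the genes they tested. Members and genes called were 3 and 102 with the erythroid mean as a covariate (0.674% of genes tested). Without both water 3 and α-KG 2 they were 23 and 2944 (19.6% of genes tested). Both of these fits were added after seeing the data, and the erythroid mean was lower on average in the α-KG group. Leaving out 1 library gave 0 to 24 members, 0 to 2683 genes (0% to 17.4% of genes tested) and medians of 0.35 to 0.48. The counts were 0 without water 1, water 2, water 4 or α-KG 4 (24 to 28 members at an unadjusted p under 0.05; 6 to 9 called by DESeq2). Members called were 2 when α-KG 3 was left out, 3 for water 5, α-KG 1 or α-KG 5, 10 for water 3 and 24 for α-KG 2. Naaa and Ctss were called in 15 of the 21 alternatives, Ctsc in 14, Arsa and Npc2 in 9, Ctsa and Cd68 in 7 and Lgmn in 5. No paired analysis was possible because titles number the libraries differently in each group, with no shared number or other pairing label. The smallest member count in any library was 39.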
